A study of Mus musculus with 4 samples.

Results

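Myc, Pim1, Cd83 and Mir142 are genes of activated mouse B cells that the cytidine deaminase AID can damage outside its intended targets. The 4 genes were taken by name from 37273 genes annotated outside the mitochondrial chromosome on mouse build mm9. No measured value entered the rule, but earlier results of these data were known when the genes were chosen. For each gene, intervals called for RIF1 were looked up over the gene, in a window reaching 1 kb to either side of its 5′ end, and in the surrounding 200 kb (100 kb to either side). Genes are given on mm9 with the GENCODE M1 annotation, and all positions count from 1.

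RIF1 occupancy was measured by chromatin immunoprecipitation and sequencing (ChIP-seq) in primary B cells stimulated with LPS (5 µg/ml) and IL-4 (5 ng/ml), at 72 h after activation. Homozygous Rif1FH/FH cells (2 samples) carried endogenous RIF1 with a FLAG-HA tag, and C57BL/6 Rif1WT/WT cells (2 samples) carried untagged RIF1 as the negative control. All 4 samples had the same stimulation. The list analysed here gives the positions of 16332 intervals kept from both Rif1FH replicates, with no score and no value per sample. Depth is unknown, the spread between replicates and the level in Rif1WT cells could not be computed, and every value below is a description with no test. An interval marks where enrichment was called in cells with tagged RIF1, which is no measure of mutation, damage or transcription. Whether the untagged control had signal at the same positions was not examined.

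The list holds intervals of separate widths. The 16043 narrow intervals (under 50 kb, median 1365 bp) are called peaks. The 289 wide intervals (90.0 to 4842 kb, median 576 kb) are taken to be RIF1-associated domains (RADs), broad regions of lower enrichment. No peak overlapped a RAD, which follows from how the list was made, so that a gene inside a RAD without a peak is not a gene without RIF1.

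AID turns cytosine into uracil in single-stranded DNA at transcribed immunoglobulin genes. Removal or error-prone copying of that uracil gives the mutations of somatic hypermutation, and paired breaks give class switch recombination, in which RIF1 acts with 53BP1 to protect DNA ends from resection. Other transcribed genes are hit at lower rates, mostly shortly after the start of transcription, and AGCT is a preferred AID motif in which both strands can be deaminated. MYC is a transcription factor for growth, and its joining to the immunoglobulin heavy-chain locus is the classic AID-dependent translocation. PIM1 is a serine/threonine kinase and proto-oncogene product. CD83 is a surface protein of the immunoglobulin superfamily that marks activated B cells and dendritic cells. Mir142 encodes a microRNA of blood cells.

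The mature products of Mir142 are shown because the gene is only its 64 bp hairpin, too short to hold a promoter. The sequences are from RefSeq (GRCm38.p6), the hairpin is identical on mm9, and the capitals mark the seed, bases 2 to 8, which pairs with target transcripts. Neither seed occurred in another mature microRNA of the RefSeq table used.
mmu-miR-142a-5p: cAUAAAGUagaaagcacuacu
mmu-miR-142a-3p: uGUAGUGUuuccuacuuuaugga
Hairpin, chr11:87570366-87570429, plus strand: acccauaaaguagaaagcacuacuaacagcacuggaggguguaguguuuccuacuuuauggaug

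The 4 genes fell into 3 states. Myc had a peak at its 5′ end and no RAD, Pim1 and Cd83 lay wholly inside RADs without a peak, and Mir142 had neither. Among 22367 coding genes, 31.9% (7125 genes, 95% Wilson interval 31.25 to 32.47%) had a peak within 1 kb of the 5′ end, and 35.9% had a peak over the gene. A RAD overlapped 22.6% of coding genes (5051 genes), and 40.5% (9051 genes) had neither kind of interval over the gene or within 1 kb of the 5′ end. Intervals of this kind cover counting error only. With 4 genes on 4 chromosomes, counts of 1 with a peak at the 5′ end, 2 with a RAD and 1 with neither say little beside these shares.

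**Figure D1:**
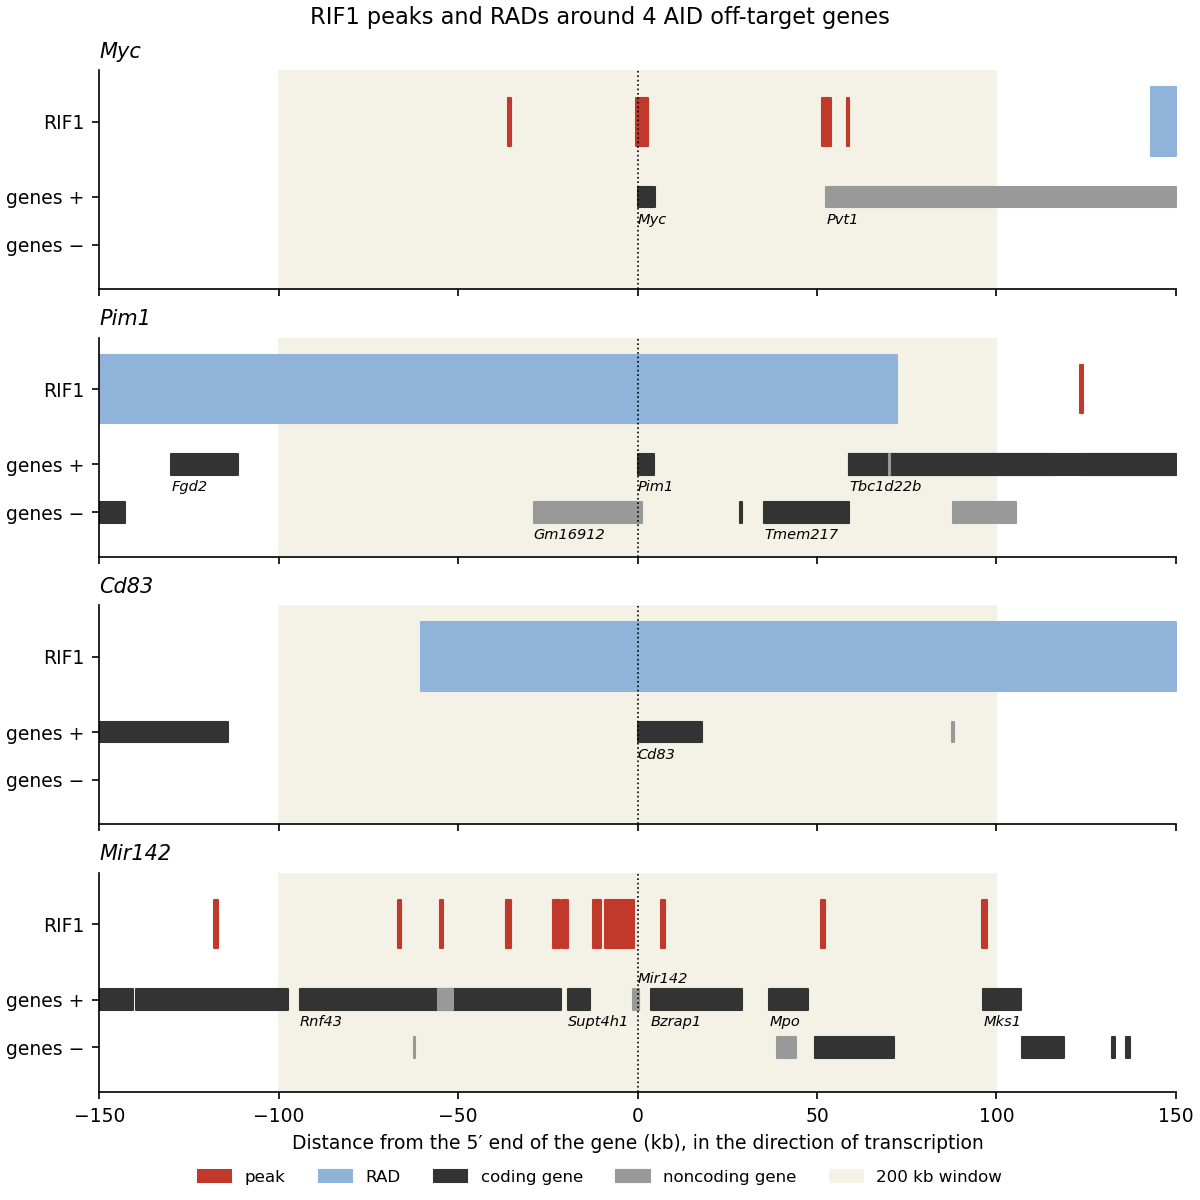
Positions of peaks (red), RADs (blue) and genes on the plus and minus strands (black, coding; grey, noncoding) from 150 kb before to 150 kb after the 5′ end of each gene, in kb, with the 200 kb window shaded. Pim1 and Cd83 sit inside RADs, a peak lies on the 5′ end of Myc, and 10 peaks lie in the window of Mir142.

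Myc (ENSMUSG00000022346.8) lies at chr15:61816946-61821929 on the plus strand. A single peak of 3262 bp, chr15:61816492-61819753, lay over its 5′ end. It began 454 bp before the 5′ end and ran to 2807 bp after it, so that 86.1% of the peak was downstream. In the transcript with 3 exons it covered exon 1 and intron 1 completely and 692 of the 772 bp of exon 2, and it stopped short of intron 2 and exon 3. The 5 distinct 5′ ends of the 6 annotated Myc transcripts were all within it. The first 2 kb of the gene, where AID lesions of a transcribed gene are most common, were covered in full. Of all coding genes, 30.5% had some peak within the 2 kb after the 5′ end, and of the 7125 with a peak at the 5′ end, 364 (5.11%) had those 2 kb covered in full, against a median cover of 848 bp.

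The Myc peak was among the wider ones. Of all peaks, 831 (5.18%) were at least as wide. Its sequence was 58.8% G or C, with a CpG ratio (observed over expected from base composition) of 0.783, and 87.8% and 92.2% of peaks were at or below these values. It held 21 AGCT motifs, or 6.44 per kb, which 71.7% of peaks did not exceed.

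The 200 kb around Myc held 4 peaks, with 7.18 kb of sequence in all. Besides the peak on Myc, a 708 bp peak lay 35.3 kb before the gene, outside any annotated gene. The other two peaks were at Pvt1, the long noncoding RNA gene that follows Myc and is itself a site of rearrangement in B cell tumours. One, of 2558 bp, lay at the Pvt1 5′ end and began 51.4 kb after the 5′ end of Myc. The other, of 653 bp, lay within Pvt1. The nearest RAD, chr15:61960001-62340000, began 143.1 kb after the 5′ end of Myc. It ran over most of Pvt1, without its 5′ end, and held no coding gene, as did 6 of the 289 RADs. Of 17316 coding genes outside RADs, 34.1% had at least as many peaks in 200 kb as Myc, and the median was 2.

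**Figure D2:**
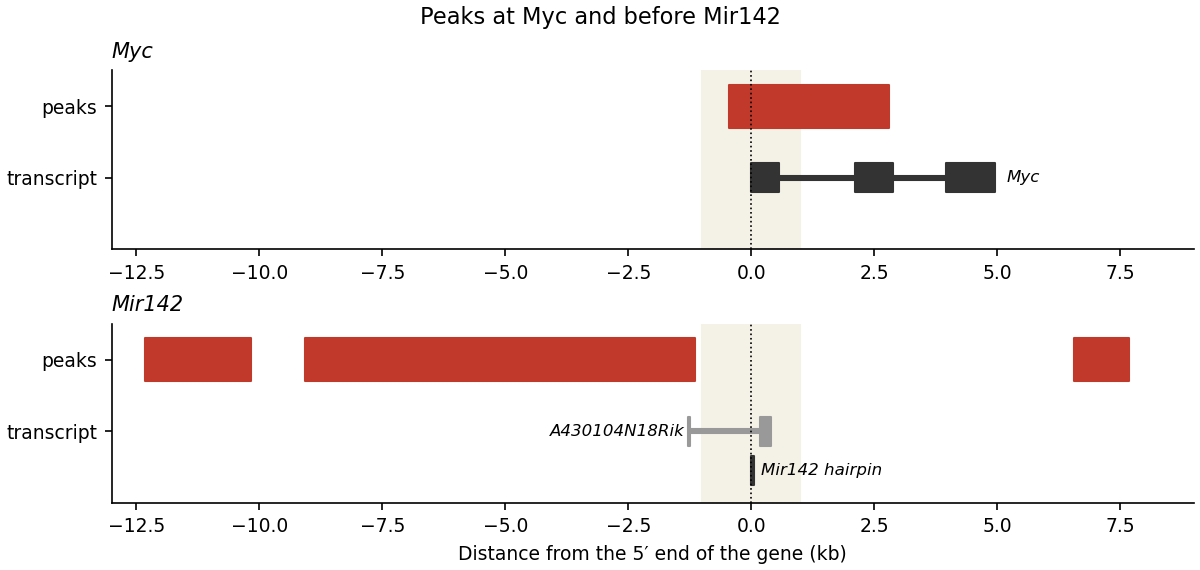
Peaks (red) and the exons and introns of Myc (black) and of the noncoding transcript that contains Mir142 (grey, A430104N18Rik), in kb from the 5′ end of each gene, with 1 kb on each side shaded. The 3262 bp peak covers the first exon of Myc, and the 7939 bp peak ends 1133 bp before the Mir142 hairpin.

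Mir142 (ENSMUSG00000065420.1) lies at chr11:87570366-87570429 on the plus strand. No peak met its 1 kb window, but one of 7939 bp, chr11:87561295-87569233, ended 1133 bp before the hairpin, 133 bp short of the window. Only 16 of the 16043 peaks (0.0997%) were at least as wide, this one included. Among 1577 annotated microRNA genes, 5.26% had a peak within 1 kb of the 5′ end, 15.7% lay in or across a RAD, and 5.65% had a peak at least as near as Mir142. The nearest RAD was 4626 kb away.

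The hairpin lies in intron 1 of the noncoding transcript A430104N18Rik (ENSMUSG00000084796.1, chr11:87569079-87570772), which begins 1287 bp before it on the same strand. The 7939 bp peak covered the 5′ end of that transcript. It reached 7784 bp before this end and 154 bp past it, over the whole of the 37 bp exon 1 and 118 of the 1425 bp of intron 1. Unlike the peak on Myc it thus lay mostly before the annotated start. Its GC content was 52.5% and its CpG ratio 0.216, which only 22.0% of peaks did not exceed. It held 45 AGCT motifs, which at 5.67 per kb was a density that 58.3% of peaks did not exceed.

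The last 200 bp of this peak hold the annotated start of the Mir142 transcript and are shown for that reason, from mm9, plus strand, with AGCT in capitals. AGCT is its own reverse complement, so a match stands for both strands. There were 3 matches. At least 1 match occurred in the last 200 bp of 64.7% of all peaks, and the share with 3 or more was not computed.
chr11:87569034-87569233: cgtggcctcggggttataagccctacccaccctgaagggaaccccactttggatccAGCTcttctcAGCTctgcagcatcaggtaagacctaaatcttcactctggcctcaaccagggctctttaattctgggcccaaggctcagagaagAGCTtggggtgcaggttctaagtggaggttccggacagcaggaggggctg

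Mir142 had the densest surroundings of the 4 genes. Its 200 kb held 10 peaks covering 20.6 kb, and 1.51% of coding genes outside RADs had as many or more. Of these peaks, 4 lay within 1 kb of the 5′ end of an annotated gene (1110028F11Rik, Supt4h1, A430104N18Rik and Mks1), 5 lay only in the body of Rnf43, Bzrap1 or Lpo, and 1 was intergenic. RNF43 is a ubiquitin ligase that lowers Wnt receptors at the cell surface. SUPT4H1 is the partner of SPT5, an elongation factor to which AID binds, and the 1715 bp peak before its gene ended 64 bp from the 5′ end. In a window of 500 kb on each side, Mir142 had 33 peaks, Pim1 7, Myc 6 and Cd83 6, beside a median of 8 for coding genes.

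**Figure D3:**
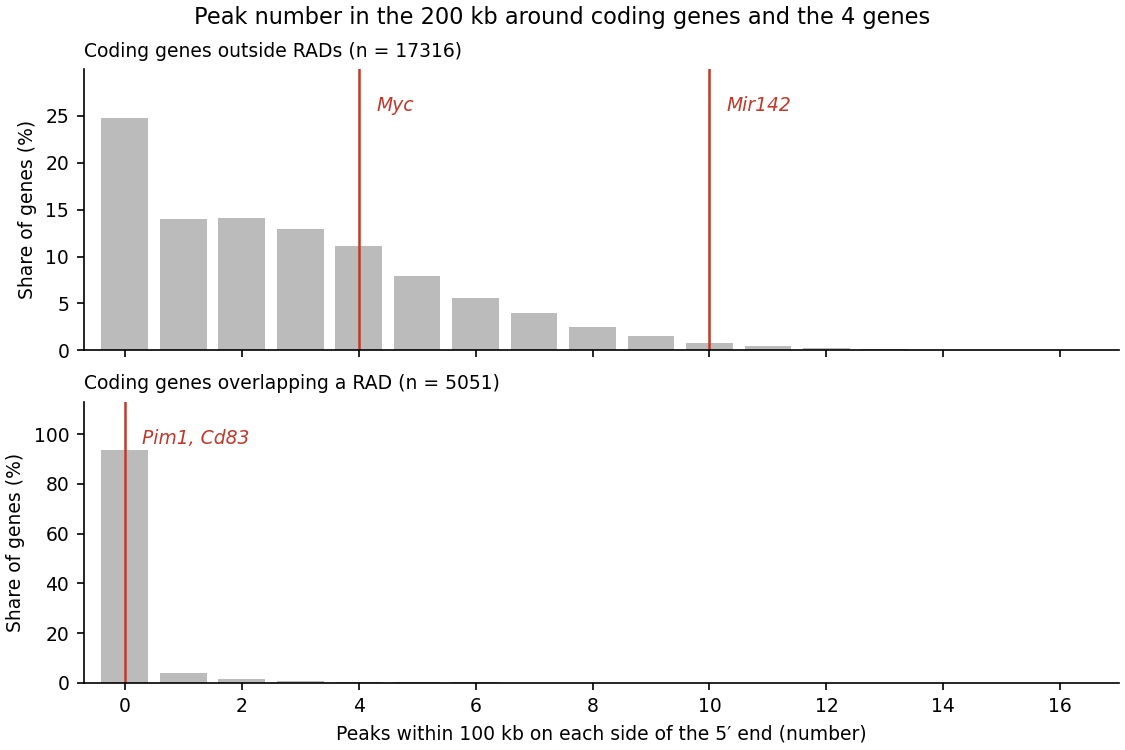
Share of coding genes (%) by the number of peaks within 100 kb of the 5′ end in both directions, for genes outside RADs (upper) and overlapping a RAD (lower). Red lines mark Myc (4 peaks) and Mir142 (10 peaks) in the upper plot and Pim1 and Cd83 (0 peaks) in the lower one.

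Pim1 (ENSMUSG00000024014.6, chr17:29627757-29632390, plus strand) lay inside a RAD, chr17:29000001-29700000. At 700 kb this RAD was wider than the median, and 110 of the 289 were at least as wide. The gene was nearer to the right edge, 67.6 kb from its 3′ end, than to the left one, 627.8 kb away. Of 4936 coding genes with the 5′ end in a RAD, 16.8% were as close to an edge as Pim1, whose 5′ end was at 72.2 kb, and the median was 229.8 kb. The RAD covered 86.1% of the 200 kb around Pim1. It was a gene-rich RAD with 19 coding genes, or 27.1 per Mb, against a median of 16.03 over all RADs, and 82 of 289 were at least as dense. Pnpla1, Tbc1d22b and Ftsjd2 were cut by its edges and the remaining 16 coding genes lay wholly inside.

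No peak lay in the 200 kb around Pim1. The nearest, of 740 bp at chr17:29751192-29751931, was 123.4 kb after the 5′ end and beyond the edge of the RAD, while on the other side the nearest was 687.7 kb away. Of coding genes in RADs, 8.97% had a peak as near as that of Pim1. Among all coding genes, 59.6% had at least 1 peak within 100 kb, but no listed peak overlaps a RAD. Of the 5051 coding genes overlapping a RAD, 93.6% had 0 peaks in that window, as Pim1 did.

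The Pim1 promoter is shown as the start region of a gene within a RAD. The 250 bases before the RefSeq start (RefSeq GRCm38.p6) were matched to mm9 and end 27 bp before the GENCODE 5′ end. They are 82.4% G or C with a CpG ratio of 0.856, against medians of 52.0% and 0.378 over 27025 promoters of the same length. Capitals mark the GC box GGGCGG and its reverse complement CCGCCC, which SP family factors bind. The window held 7 matches, and of all promoters 32.9% held at least 1 and 0.437% at least 7. It held no AGCT, which 70.0% of promoters had. The promoters were not matched for GC content, and GGGCGG is made of G and C only. These shares therefore do not separate the motif counts from base composition.
chr17:29627480-29627729: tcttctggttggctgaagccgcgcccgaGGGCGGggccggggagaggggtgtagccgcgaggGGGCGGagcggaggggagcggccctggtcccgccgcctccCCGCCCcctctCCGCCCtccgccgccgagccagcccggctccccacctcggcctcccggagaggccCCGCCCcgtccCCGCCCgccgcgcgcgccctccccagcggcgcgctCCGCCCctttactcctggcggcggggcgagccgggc

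Cd83 (ENSMUSG00000015396.2, chr13:43880476-43898499, plus strand) lay inside a RAD of 1054 kb, chr13:43820001-44874000, and 49 of the 289 RADs were at least as wide. The surroundings differed from those of Pim1. This RAD met 2 coding genes, Cd83 and Jarid2, of which Jarid2 (a subunit of Polycomb repressive complex 2, which methylates histone H3) was cut by an edge. At 1.90 coding genes per Mb it was among the 11 of 289 RADs with the fewest. Cd83 was close to one end of it, with its 5′ end 60.5 kb from the left edge and its 3′ end 975.5 kb from the right one. Of coding genes in RADs, 14.1% were as near to an edge.

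The RAD took up 80.2% of the 200 kb around Cd83, which held no peak. The nearest peak, of 1107 bp at chr13:43620174-43621280, lay 259.2 kb before the 5′ end, and 27.4% of coding genes in RADs had a peak as near. On the other side the first peak was 1216 kb away. The stretch without a peak around Cd83 was therefore 1475 kb long, against 811.1 kb around Pim1, 86.7 kb between the peaks on either side of the Myc peak, and 7.70 kb around Mir142. The stretches at Cd83 and Pim1 include the RADs of 1054 kb and 700 kb, in which no peak could be listed. Their lengths are thus not comparable with those at Myc and Mir142, which lie outside RADs.

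**Figure D4:**
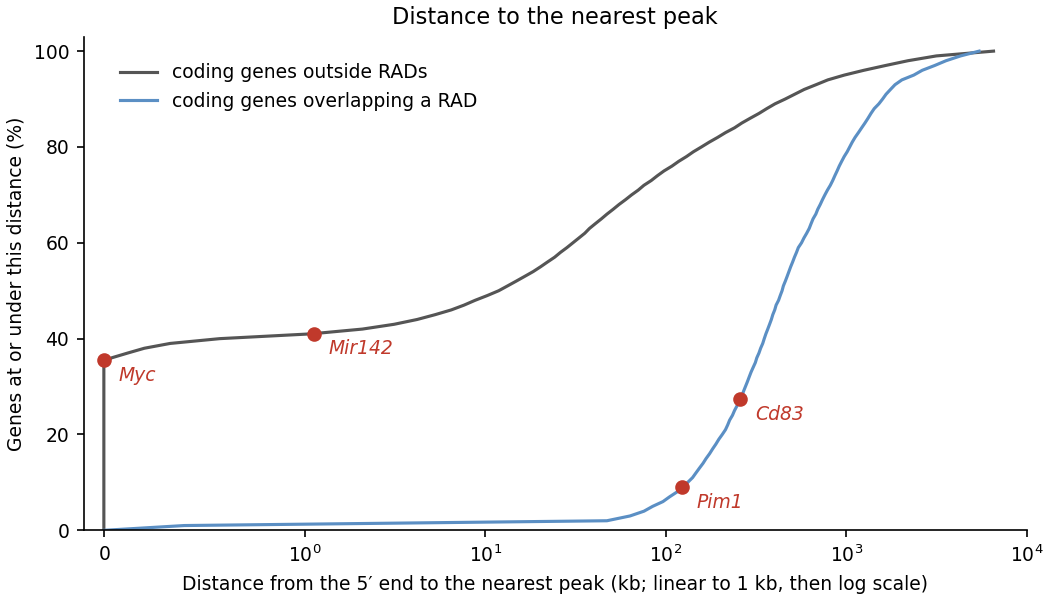
Cumulative share of coding genes (%) by distance from the 5′ end to the nearest peak (kb, linear to 1 kb and logarithmic beyond) outside RADs (grey) and overlapping a RAD (blue). The red points are Myc (0 kb), Mir142 (1.13 kb), Pim1 (123.4 kb) and Cd83 (259.2 kb).

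In order of distance to the nearest peak the genes were thus Myc, Mir142, Pim1 and Cd83. The median was 11.9 kb for coding genes outside RADs (quartiles 0 and 97.8 kb), 440.8 kb for those in RADs (240.4 and 889.1 kb) and 100.2 kb for microRNA genes. Both genes in RADs were nearer to a peak than the median of their class. As no listed peak overlaps a RAD, this distance depends on the distance to the RAD edge. Both genes were also nearer to an edge (72.2 kb for Pim1, 60.5 kb for Cd83) than the median of 229.8 kb.

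The AID motif AGCT gave another order. The 2 kb after the 5′ end held 12 AGCT in Myc, 9 in Cd83, 7 in Pim1 and 2 in Mir142. The quartiles over coding genes were 7 and 12 with a median of 10, so that the 3 coding genes lay within the middle of the distribution, and 31.8% of coding genes had at least as many as Myc. The count for Mir142 starts at the hairpin. From the 5′ end of A430104N18Rik it was 12. CpG ratios of the same 2 kb were 0.766 in Myc, 0.795 in Pim1, 0.488 in Cd83 and 0.339 in Mir142, beside a median of 0.394 over coding genes.

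The 4 genes were set beside 28 other genes reported as AID off-targets in B cells or B cell lymphoma. This list was drawn up from general knowledge, with earlier results of these data known. The coding genes set beside it were not matched to it for expression, which was not measured here. The paper places RIF1 in B cells mostly in active chromatin that replicates early. Whether a share unlike that of coding genes is particular to off-targets was therefore not tested. A RAD overlapped 16 of the 28 (57.1%, Wilson interval 39.07 to 73.49%), beside 22.6% of coding genes. They included the transcription factor genes Bcl6, Irf4, Irf8, Bach2 and Junb, the B cell receptor chain Cd79a, the class II transactivator Ciita, the cytokine signalling inhibitor Socs1, the migration receptor S1pr2, and Rhoh, Btg1, Bcl7a, Il4i1, H2afx and Zfp36l1. They lay in 15 separate RADs, as Ciita and Socs1 shared one of 640 kb. The last of the 16 was Pvt1, whose 5′ end had a peak as well.

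A peak lay within 1 kb of the 5′ end of 9 of the 28 genes (32.1%), beside 31.9% of coding genes. Besides Pvt1 these were Pax5 (the B cell identity factor), Cd79b, the death receptor Fas, the antiproliferative gene Btg2, Birc3, Il4ra, Il21r and Lcp1. Birc3, an inhibitor of apoptosis, was most like Myc, with a 5364 bp peak over all of the first 2 kb. The peak at Pax5 was 5021 bp wide but covered 745 bp of the first 2 kb. Ebf1 had peaks in the gene body only, the nearest 3.37 kb from the 5′ end, and 3 genes (10.7%) had neither kind of interval, beside 40.5% of coding genes. The list includes the noncoding genes Mir155, Gas5 and Pvt1, while the shares set beside it are of coding genes. Mir155 and Gas5 were among those with neither. The median number of peaks in 200 kb was 1.5, beside 1 for all coding genes, and the median distance to a peak was 85170 bp, beside 41070 bp. No listed peak overlaps a RAD, and RADs met 57.1% of these genes beside 22.6% of coding genes. The medians and the shares with a peak are therefore not directly comparable. Among off-targets without a RAD, 8 had a peak at the 5′ end, 1 in the gene body only and 3 neither. The counts for the 17316 coding genes without a RAD were 7071, 1194 and 9051. Genes with a peak at the 5′ end thus outnumbered those with neither among these off-targets, while the reverse held among coding genes. This difference was not tested, and the coding genes were not matched for expression.

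**Figure D5:**
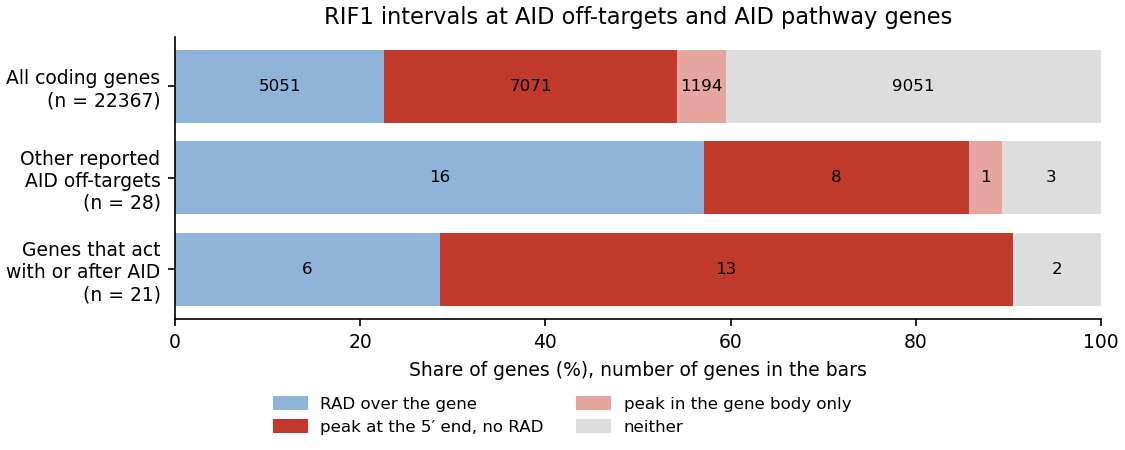
Share of genes (%) with a RAD over the gene, a peak within 1 kb of the 5′ end and no RAD, a peak in the gene body only, or neither, for all coding genes, 28 other AID off-targets, and 21 genes of proteins that act with or after AID. Numbers in the bars are genes, and Pvt1, which had both, is counted under RADs.

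A further set of 21 genes encodes proteins that bind AID, help it reach DNA, process uracil, or act at the resulting breaks. It too was drawn up with earlier results of these data known. Of these 21 genes, 13 (61.9%) had a peak at the 5′ end, beside 31.9% of coding genes, and 6 (28.6%) had a RAD, beside 22.6%. Those with a peak comprised the uracil glycosylase gene Ung, the mismatch repair genes Msh6, Pms2 and Exo1, the translesion polymerase gene Rev1, the RNA exosome genes Exosc3 and Exosc10, Supt4h1, Rpa3, Ctnnbl1 and Ptbp2, and the end-protection genes Trp53bp1 and Rif1. Ung was the only one of the 13 whose first 2 kb were covered in full, as in Myc.

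The peaks at Supt4h1, Rev1 and Rif1 ended 64, 230 and 111 bp before the 5′ end, with no overlap of the gene. Apex1, Supt5h, Prkar1a, Prkaca, Rpa1 and Rpa2 were the 6 genes met by a RAD, and Polh and Supt6h (9.52%) had neither, beside 40.5% of coding genes. The 21 genes had a median of 3 peaks in 200 kb and a median distance to a peak of 111 bp. Supt4h1 had 10 peaks in its own 200 kb, of which 9 were also among the 10 around Mir142.

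As a check of the labelled cell type, the list gives binding and no expression. Of 5 B cell marker genes, Cd79b and Pax5 had a peak at the 5′ end and Ms4a1, Cd79a and Cd22 lay in RADs. None of 4 T cell markers (Cd3e, Cd3g, Cd4, Cd8a) had a peak at the 5′ end and 1 lay in a RAD. Of 4 myeloid markers (Lyz2, Csf1r, Itgam and Emr1), 0 had a peak at the 5′ end, 2 lay in RADs and 1 had a peak in the gene body. Among coding genes, 31.9% had a peak at the 5′ end and 22.6% a RAD. Beside these shares, counts of so few markers cannot tell the cell types apart. Cd79a, Cd79b and Pax5 were also in the off-target list.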

How the data were processed

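Reads came from anti-HA ChIP-seq of 2 Rif1FH and 2 Rif1WT samples. The antibody label names CD43 beads, a reagent for isolating B cells, and the study's methods were followed instead. According to the methods and the submitters' processing notes, the authors trimmed reads (Trim Galore 0.6.4) and aligned them uniquely to mm9 (Bowtie 1.0.0). They called narrow and broad peaks per replicate (MACS2 2.2.6) and domains (EDD). These calls were merged (bedtools 2.27.1), and those found in both Rif1FH replicates were kept. The width of a listed peak can therefore be that of a broad or merged call. Unique alignment leaves repeats without peaks. The deposited list holds positions only, with no count, score or p-value.

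Intervals under 50 kb were treated as peaks and the others as RADs. Overlap needed 1 bp. The 5′ end was that of the gene, and for symbols with several identifiers the longest gene was used. Named genes were the 4 genes, listed off-target and AID pathway genes, and neighbours at peaks or RAD edges. Members and gene lists were chosen with earlier results of these data known, and the lists from general knowledge. Alternatives changed windows, interval limits, overlap rules and 5′ ends. Overlap code was tested on simulated data. Python 3.11.15, numpy 2.4.6, scipy 1.17.1 and pysam 0.24.0 were used. Rif1WT data were not analysed here. Some genes of the pathway and marker lists are not reported here.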

Additional observations from a re-analysis of the deposited data

How the results depend on the processing

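Over 20 results and 81 alternatives, 54 values moved by less than the limit set for them (1.5 times for counts and distances, the Wilson interval for shares) and 27 moved further. The number of the 4 genes with a peak at the 5′ end was 1 in the report, 2 with windows of 2 kb and 5 kb or from the 5′ end of the transcript containing Mir142, and 0 when the midpoint of the peak had to be in the window, since that of the Myc peak lay 1176 bp after the 5′ end. The share of coding genes with such a peak was 31.9%, and became 31% at 0.5 kb, 32.7% at 2 kb, 34.8% at 5 kb, 33.9% from all transcripts, 29.8% by midpoint and 20.3% with peaks at or above the median width. The share overlapping a RAD, 22.6%, became 21.3% with the whole gene inside and 19.3% with RADs of 500 kb or more. With peaks at or above the median width, the nearest was 224736 bp from Pim1 and 418264 bp from Cd83. With 500 kb on each side, peaks per 200 kb came to 1.2 at Myc, 1.4 at Pim1, 1.2 at Cd83 and 6.6 at Mir142.

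No paired analysis was possible because both replicates were merged into 1 set of positions before deposit, and leaving out a replicate was not run for the same reason. Depth is unknown, so a missing peak cannot be told from one under the detection limit.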
